A study of Danio rerio with 6 samples.

Results

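The genes described here are 5 rows of an RNA-seq table that were chosen as genes of the xanthophore lineage, 5 of the 27726 genes listed. They were picked by Ensembl identifier: ENSDARG00000070453, ENSDARG00000102986 (csf1ra), ENSDARG00000100398 (pax7a), ENSDARG00000070818 (pax7b) and ENSDARG00000055240 (xdh). The first of these was chosen under the name gch2, but the reference gene table pairs it with GCH1 and pairs gch2 with ENSDARG00000099101. It is therefore called gch1 below, and gch2 is described beside it. The table lists both pax7 rows as PAX7, so the letters a and b come only from the list of identifiers. All 5 genes passed the filter on low values described below.

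RNA was taken from zebrafish (Danio rerio) cells that were purified by flow cytometry as positive for the sox10:dsRed reporter, a red fluorescent protein under control of sox10 sequences. Animals were 6 days post fertilization in every group. There were 3 libraries of each group, wild type and shoc2 mutant (Shoc2-/-, made with CRISPR/Cas9, D22 in the column names), and all of them carried the reporter. The Shoc2 protein serves as a scaffold in RAS-ERK signalling, and the design asked which transcripts change in these cells when it is lost. The labels do not say whether libraries of a group came from separate clutches or sorts, so the p-values measure the spread between these libraries, which may be technical. Nor do they give the number of larvae pooled in a library.

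Xanthophores are the yellow to orange pigment cells of fish and derive from the neural crest. Their colour comes from pteridines, made from GTP, and from carotenoids taken up with the diet. Pax3 and Pax7 transcription factors act in specification of the lineage, the receptor tyrosine kinase Csf1ra is needed for its cells to migrate and survive, and GTP cyclohydrolase and xanthine dehydrogenase are enzymes of pteridine synthesis. None of the 5 genes is restricted to xanthophores. In zebrafish csf1ra is also used by macrophages, and pax7 genes by the dorsal neural tube and muscle progenitors. GTP cyclohydrolase also makes the tetrahydrobiopterin that monoamine neurons need.

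Each library held between 20280582 and 21206351 normalized counts, the deposited unit, in which 1 read is worth about 1 count. The transcript of shoc2 was measured at 1194, 959 and 1083 normalized counts in wild-type replicates 1 to 3 and at 844, 798 and 673 in mutant replicates 1 to 3. Every mutant library was below every wild-type library. The log2 fold change of shoc2 was -0.48 (SE 0.148), and its Benjamini-Hochberg adjusted p was 0.636 in limma, so it did not pass the threshold of 0.05. The sort gene itself varied widely between libraries: sox10 stood at 25782, 8573 and 14620 in wild type and at 13953, 30211 and 27904 in mutants. Summed epidermal markers (5 genes) ranged from 44153.5 to 145897.1 in wild type and from 37255.4 to 66248.5 in mutants. What part these differences have in the values below was not tested.

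None of the 5 xanthophore lineage genes differed between mutant and wild-type cells beyond the spread between libraries. The ratio of the mutant to the wild-type mean lay between 0.932 for csf1ra and 1.16 for pax7b, and the 3 and 3 values overlapped for each gene. With limma on log2(normalized count + 1), 0 of the 5 passed an adjusted p under 0.05, and 0 had an unadjusted p under 0.05. The same fit called 1 of 20463 tested genes, or 0.00489%, at the adjusted threshold and 1186 genes, or 5.8%, at the unadjusted one. Groups did not overlap in 0 of the 5 genes and in 10.6% of all tested genes, with 5.28% lower and 5.29% higher in mutants. With 5 members, such counts do not set them apart from the background. In bulk cells, fewer xanthophores and less RNA per xanthophore cannot be told apart, and opposite changes of this kind could not be seen separately.

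**Figure D1:**
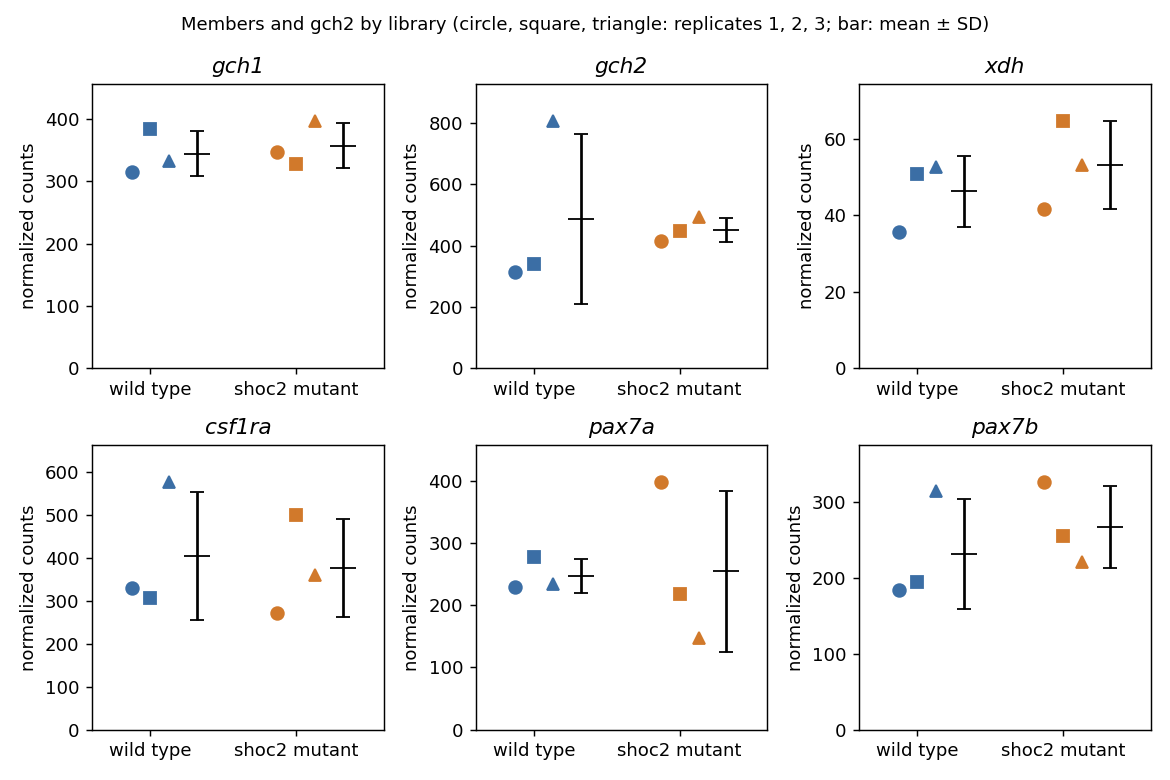
Normalized counts (vertical axes, starting at 0) of the 5 members and of gch2 in each wild-type and shoc2 mutant library; circle, square and triangle mark replicates 1, 2 and 3, and the black bars are mean ± SD (n = 3). The 2 groups overlap in every panel, and no library is the highest in all panels.

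The pteridine enzymes are taken first. GTP cyclohydrolase catalyses the entry step from GTP. The gch1 row (ENSDARG00000070453) had 315, 384 and 333 normalized counts in wild-type replicates 1 to 3 and 346, 328 and 397 in mutant replicates 1 to 3. It was the steadiest of the 5 genes, with a coefficient of variation of 10.4% in wild type and 9.97% in mutants. Means were 344 ± 35.8 (SD, n = 3) and 357 ± 35.6 (SD, n = 3), a log2 fold change of 0.05 (SE 0.164, limma adjusted p 0.99). The 95% interval of the fold, on the scale of normalized count + 1, ran from 0.802 to 1.34.

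The gch2 row (ENSDARG00000099101), the GTP cyclohydrolase gene linked to xanthophore pigment, behaved differently across libraries. It had 315, 341 and 808 normalized counts in wild type and 416, 447 and 492 in mutants. Wild-type replicate 3 was above every other library, while wild-type replicates 1 and 2 were below all mutants. Means were 488 ± 277 (SD, n = 3) and 452 ± 38.4 (SD, n = 3), with a log2 fold change of 0.02 (SE 0.324, limma adjusted p 0.998) and an interval of the fold from 0.612 to 1.69. Divided by gch1 of the same library, gch2 was 1.00, 0.887 and 2.43 in wild type and 1.20, 1.36 and 1.24 in mutants. These are ratios of counts not corrected for gene length, so only their change between libraries can be read. The 2 genes code for related enzymes, and how reads shared by similar copies were counted is not stated.

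Xanthine dehydrogenase oxidises purines and pterins. Counts of its gene xdh were low, at 35.6, 50.7 and 52.6 normalized counts in wild type and 41.6, 64.7 and 53.1 in mutants. The wild-type values all lay below the highest mutant library, but mutant replicate 1 was under wild-type replicates 2 and 3. Means were 46.3 ± 9.31 (SD, n = 3) and 53.1 ± 11.6 (SD, n = 3), a log2 fold change of 0.19 (SE 0.327, limma adjusted p 0.981). The interval of the fold was the widest of the 5 upwards, from 0.684 to 1.91. The highest library, mutant replicate 2, was also the highest for all 6 tested markers of liver and gut, tissues in which xdh is also expressed; mutant replicate 2 was highest for 14.1% of all tested genes. Summed with 1 further matched marker that did not pass the filter, those genes ranged from 2521.5 to 3921.8 in wild type and from 2641.6 to 8006.9 in mutants, and their part in the xdh values was not tested.

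The receptor gene csf1ra had 329.9, 307 and 577 normalized counts in wild type and 272, 499.9 and 359.8 in mutants. Wild-type replicate 3 and mutant replicate 2 were high and the other 4 libraries lay between 272 and 359.8. The coefficient of variation was 37.0% in wild type and 30.5% in mutants. Means were 405 ± 149.7 (SD, n = 3) and 377 ± 115 (SD, n = 3), with a log2 fold change of -0.09 (SE 0.293, limma adjusted p 0.991) and an interval of the fold from 0.595 to 1.49. The sign rested on single libraries. Without wild-type replicate 3 the log2 fold change was 0.20, and without mutant replicate 1 it was 0.13.

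Because macrophages also use csf1ra, 8 matched macrophage and leukocyte markers were set beside it. Wild-type replicate 3 and mutant replicate 2 were the highest pair for csf1ra, and this pair was taken up after its values were seen. They also held the highest pair of values for 7 of the 8, against 6.46% of all tested genes. The exception was cd74a, an antigen presentation gene, with 1079, 546 and 1627 normalized counts in wild type and 57.0, 124 and 24.2 in mutants (log2 fold change -4.12, limma adjusted p 0.124). ptprc, the pan-leukocyte gene for CD45, had 262, 338 and 544 in wild type and 186, 486 and 323 in mutants. spi1, a myeloid transcription factor, had 123, 109 and 202 in wild type and 65.8, 227 and 179.9 in mutants. The paralogous receptor gene csf1rb had 96.2, 107 and 179 in wild type and 47.4, 149 and 80.2 in mutants. Summed over the 8 markers, levels ranged from 2344.6 to 4887.1 in wild type and from 1115.8 to 2768.5 in mutants, and none of the 8 was at 0. Without cd74a the other 7 summed to 1688, 1799 and 3260 in wild type and to 1059, 2644 and 1794 in mutants, so the groups overlapped. The csf1ra pair of libraries was also highest for 1 of 5 epidermal markers, epcam, and for 2 of 6 tested liver and gut markers. Markers of the same cell type can vary together, so they are not independent counts. How much of the csf1ra signal came from macrophages and other leukocytes was not tested.

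The transcription factor gene pax7a had 229, 278 and 233 normalized counts in wild type and 397, 218 and 147 in mutants. Wild-type libraries were close together, while the mutant libraries held both the highest and the lowest value of all 6. The coefficient of variation was 10.9% in wild type and 50.8% in mutants. Means were 247 ± 26.9 (SD, n = 3) and 254 ± 129 (SD, n = 3), with a log2 fold change of -0.07 (SE 0.326, limma adjusted p 0.992) and an interval of the fold from 0.570 to 1.59. The mean was thus slightly higher in mutants on the count scale and slightly lower on the log scale. Without mutant replicate 3 the log2 fold change was 0.26, and without wild-type replicate 2 it was 0.015.

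Its duplicate pax7b had 185, 195 and 315 normalized counts in wild type and 327, 256 and 221 in mutants. Wild-type replicates 1 and 2 were below all mutants, and wild-type replicate 3 was above mutant replicates 2 and 3. Means were 232 ± 72.6 (SD, n = 3) and 268 ± 53.99 (SD, n = 3), with a log2 fold change of 0.23 (SE 0.254, limma adjusted p 0.967) and an interval of the fold from 0.789 to 1.75. The pair did not keep a fixed proportion. The ratio of pax7a to pax7b counts, not corrected for length, was 1.24, 1.42 and 0.74 in wild type and 1.22, 0.851 and 0.667 in mutants. Their sum was 413.5, 472.9 and 548.8 in wild type and 724.2, 473.2 and 368.2 in mutants, so the groups overlapped for the pair as well. Reads that match both copies could have been given whole to either copy or dropped in counting. Reads given to either copy would make each row less certain than the sum, while dropped reads would be missing from the sum as well.

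Neural and muscle progenitor markers were also read in every library, as summed values. The 11 neural markers summed to between 9495.4 and 13565.0 in wild type and between 9763.8 and 17221.8 in mutants. This list was drawn up for dorsal neural tube and neurons together and cannot tell them apart. Mutant replicate 1, the highest library for pax7a and pax7b, was the highest for 8 of these 11, against 19.8% of all tested genes. Mutant replicate 3, the lowest for pax7a, was the lowest for 6 of the 11, against 18.8% of all tested genes. Both held together, as for pax7a, in 4 of the 11, against 5.88% of all tested genes. This order was taken from pax7a after its values were seen, and neural markers can vary together. Wild-type replicate 1 was the lowest for 4 of the 11, against 17.7% of all tested genes, and had the lowest sum, 9495.4. elavl3, a neuronal RNA-binding protein gene, had 3858, 5054 and 4487 normalized counts in wild type and 7598, 5961 and 4431 in mutants. The 7 muscle progenitor genes summed to between 1318.0 and 1837.9 in wild type and between 1225.7 and 1595.4 in mutants. Among them, myf5 and myod1 had the lowest means over the 6 libraries, 33.0 and 81.5 normalized counts. Mutant replicate 1 was the highest library for 2 of the 7, and mutant replicate 3 was the lowest for 2. Both held together in 1 of the 7, myog, against 5.88% of all tested genes. Wild-type replicate 2 was the highest for 4 of the 7, against 17.7% of all tested genes. The 2 PAX3 rows in this sum also stand in the list of xanthophore transcription factors below. What part neural and muscle progenitor cells have in the pax7a and pax7b values was not tested.

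**Figure D2:**
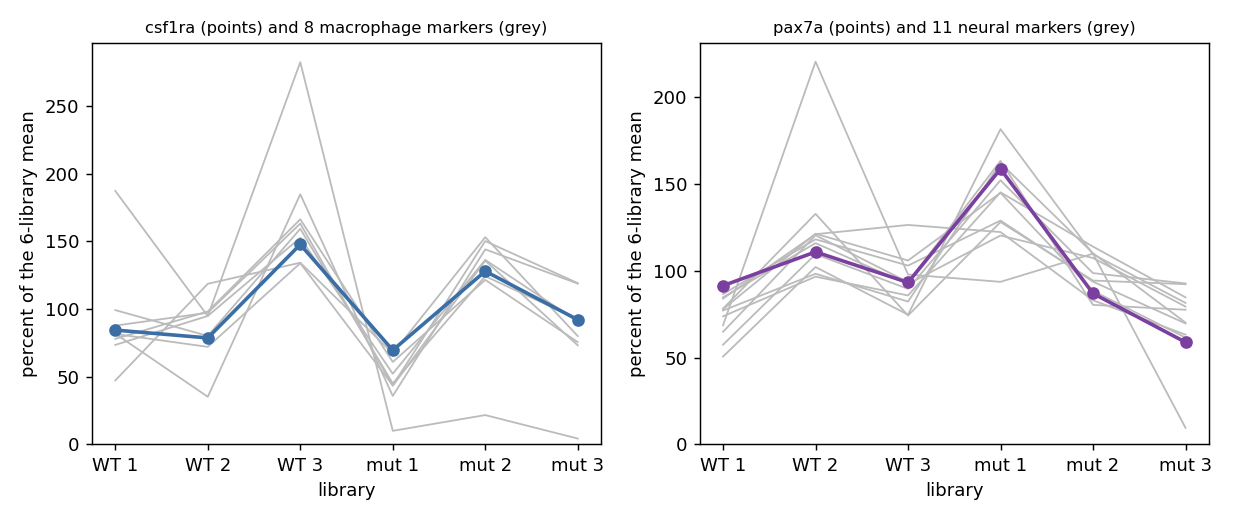
Level in each library as a percent of the gene's own mean over the 6 libraries (vertical axis), for csf1ra with 8 macrophage markers on the left and for pax7a with 11 neural markers on the right; points and thick lines are the member, grey lines the markers, WT is wild type and mut is shoc2 mutant. csf1ra and most macrophage markers are high in wild-type replicate 3 and mutant replicate 2, and pax7a and most neural markers are high in mutant replicate 1.

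Seen together, the 5 genes did not move as 1 group. Relative to its own mean over the 6 libraries, csf1ra was highest in wild-type replicate 3 (147.6%), pax7a and pax7b in mutant replicate 1 (158.7% and 130.8%), xdh in mutant replicate 2 (130.1%) and gch1 in mutant replicate 3 (113.2%). The lowest library was wild-type replicate 1 for gch1, pax7b and xdh (90.0%, 73.9% and 71.6%), mutant replicate 1 for csf1ra (69.5%) and mutant replicate 3 for pax7a (58.8%). No library was high or low for all 5. gch2 peaked in wild-type replicate 3 at 171.9%.

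**Figure D3:**
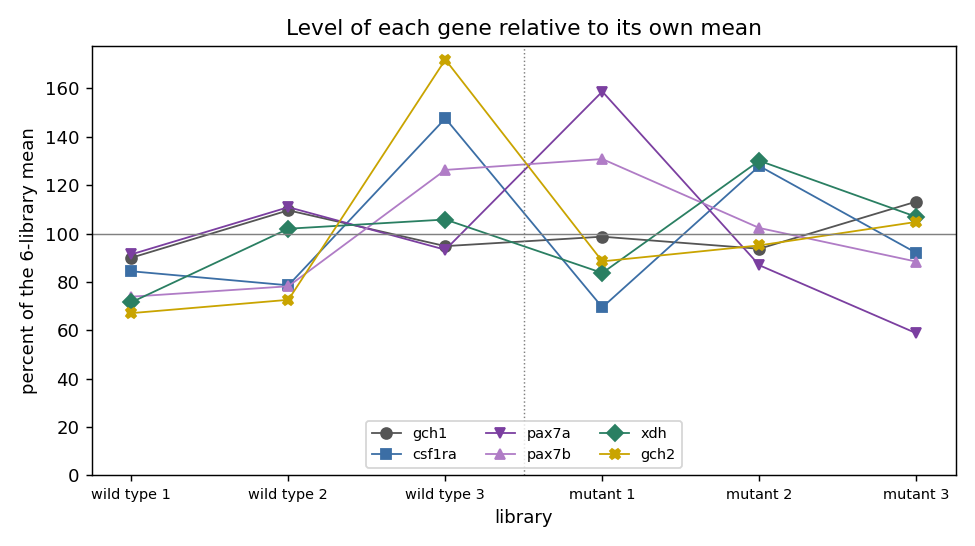
Level of the 5 members and gch2 in each library (horizontal axis) as a percent of that gene's mean over the 6 libraries (vertical axis); the dotted line parts wild type from shoc2 mutant, and lines only join the values of 1 gene. gch1 stays between 90.0% and 113.2%, while pax7a runs from 58.8% to 158.7% and peaks in another library than csf1ra.

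For each member, tested genes that had a symbol and averaged 50 or more normalized counts were ranked by likeness, as Pearson's r of log2 values over the 6 libraries. The most alike genes were gpatch4 (r = 0.991) and zgc:153867 (0.989) for gch1, arrdc1a (0.989) and si:dkey-33m11.8 (0.988) for csf1ra, and caskb (0.995) and EIF4G3 (0.994) for pax7a. For pax7b they were MMP24 (0.993) and sox18 (0.992), and for xdh IFFO2 (0.996) and ACP5 (0.989). The members had no gene in common among these nearest neighbours. With 6 libraries, between 69 and 353 genes had r over 0.9 with a given member out of about 16249 compared, so these values describe the libraries only. Among the genes of the lists alone, a ranking added after the data were seen, the nearest to csf1ra were epcam (0.948) and ptprc (0.926), and the nearest to pax7a were SNAP25 (ENSDARG00000020609, 0.947) and OTX2 (0.941). The nearest to gch1 were GMPS (0.884) and PAICS (0.748). For pax7b they were SPR (ENSDARG00000004406, 0.793) and apoa1b (0.742), and for xdh cldni (0.775) and ptprc (0.750). The nearest to gch2 was aox5 (0.978), the aldehyde oxidase gene that marks zebrafish xanthophores. Which cells these likenesses come from was not tested.

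The pteridine pathway was also read from a list of 12 matched genes, which holds the member xdh and the gch2 row already described; 10 of the 12 passed the filter on low values. In limma 0 rose and 0 fell at an adjusted p under 0.05, 0 had an unadjusted p under 0.05, and no single gene separated the groups. The median log2 fold change was -0.01, against 0.01 over all tested genes. Summed over all 12, every mutant library was below every wild-type library, at 6571.4 to 7284.8 against 7395.1 to 7816.3. Of all tested genes, 5.28% were lower in this way. Sums of the purine, carotenoid, receptor, pigment progenitor, melanophore and iridophore lists overlapped between groups. mycbp2 and QDPR (ENSDARG00000040190), with means of 4314 and 1195 over the 6 libraries, made up most of the pteridine sum. It thus says little of the other genes, and it was not tested. mycbp2, a ubiquitin ligase gene needed for yellow pigment, averaged 4375 ± 371 normalized counts across wild-type libraries (SD, n = 3) and 4254 ± 581 across mutant ones (SD, n = 3). pcbd1, which recycles the pterin cofactor, had 575 ± 113.5 (SD, n = 3) and 512 ± 68.6 (SD, n = 3). The dihydropteridine reductase gene QDPR (ENSDARG00000040190) had the lowest log2 fold change of the list, -0.36 (SE 0.231, limma adjusted p 0.951). aox5, singled out after its values were seen, had 48.1, 43.3 and 239 normalized counts in wild type and 72.5, 97.5 and 122 in mutants. As for gch2, wild-type replicate 3 was above every other library and wild-type replicates 1 and 2 were below all mutants.

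Purine synthesis supplies the GTP from which pteridines are made. In its list of 11 genes 0 rose and 0 fell in limma, 0 had an unadjusted p under 0.05, and log2 fold changes lay between -0.15 and 0.20 with a median of 0.02. paics, a bifunctional enzyme gene of the pathway, averaged 1147 ± 80.8 normalized counts across wild-type libraries (SD, n = 3) and 1259 ± 74.3 across mutant ones (SD, n = 3). gmps, which makes GMP, had 1332 ± 183.9 (SD, n = 3) and 1347 ± 80.9 (SD, n = 3).

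The carotenoid list held 6 genes, and again 0 rose and 0 fell in limma, with 0 at an unadjusted p under 0.05. Its median log2 fold change was 0.28. scarb1, the scavenger receptor gene that cells need to take up carotenoids, averaged 268 ± 80.1 normalized counts across wild-type libraries (SD, n = 3) and 241 ± 11.2 across mutant ones (SD, n = 3). bco1, which cleaves beta-carotene, had 393 ± 51.2 (SD, n = 3) and 481 ± 60.6 (SD, n = 3), a log2 fold change of 0.29 (SE 0.171, limma adjusted p 0.935). plin6, a lipid droplet protein gene of xanthophores, was low, with 2.05 to 32.9 normalized counts over the 6 libraries, and its 95% interval ran from -2.29 to 1.93 on the log2 scale.

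The list of receptor, ligand, transcription factor and transporter genes held 12 genes, 3 of them members. In limma 0 rose and 0 fell at the adjusted threshold, and 1, il34, had an unadjusted p under 0.05 and groups that did not overlap. Over all tested genes the shares were 5.8% and 10.6%, so 1 of 12 is no more than the background gives by non-overlap. Il34 and the 2 Csf1 proteins are ligands of Csf1 receptors. il34, singled out after its values were seen, had 327, 196 and 321 normalized counts in wild type and 102, 155 and 94.1 in mutants. All 3 mutant libraries were below all wild-type libraries. Its log2 fold change was -1.26 (SE 0.282), its exact permutation p was 0.1, which is as low as 3 against 3 libraries can give, and its limma adjusted p of 0.367 did not pass.

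csf1a averaged 101 ± 25.6 normalized counts across wild-type libraries (SD, n = 3) and 67.5 ± 21.3 across mutant ones (SD, n = 3), and csf1b had 309 ± 82.3 (SD, n = 3) and 237 ± 56.8 (SD, n = 3). Both overlapped between groups, with log2 fold changes of -0.60 (SE 0.318) and -0.37 (SE 0.265) and limma adjusted p of 0.911 and 0.955. sox5, a transcription factor gene that acts in pigment cell fate, had 5274 ± 833 (SD, n = 3) and 5600 ± 172 (SD, n = 3). The 2 PAX3 rows had log2 fold changes of -0.24 and 0.08. The sugar transporter family genes slc2a15a, slc2a15b and slc2a11b had log2 fold changes of -0.69, 0.16 and 0.22, each with overlapping groups.

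**Figure D4:**
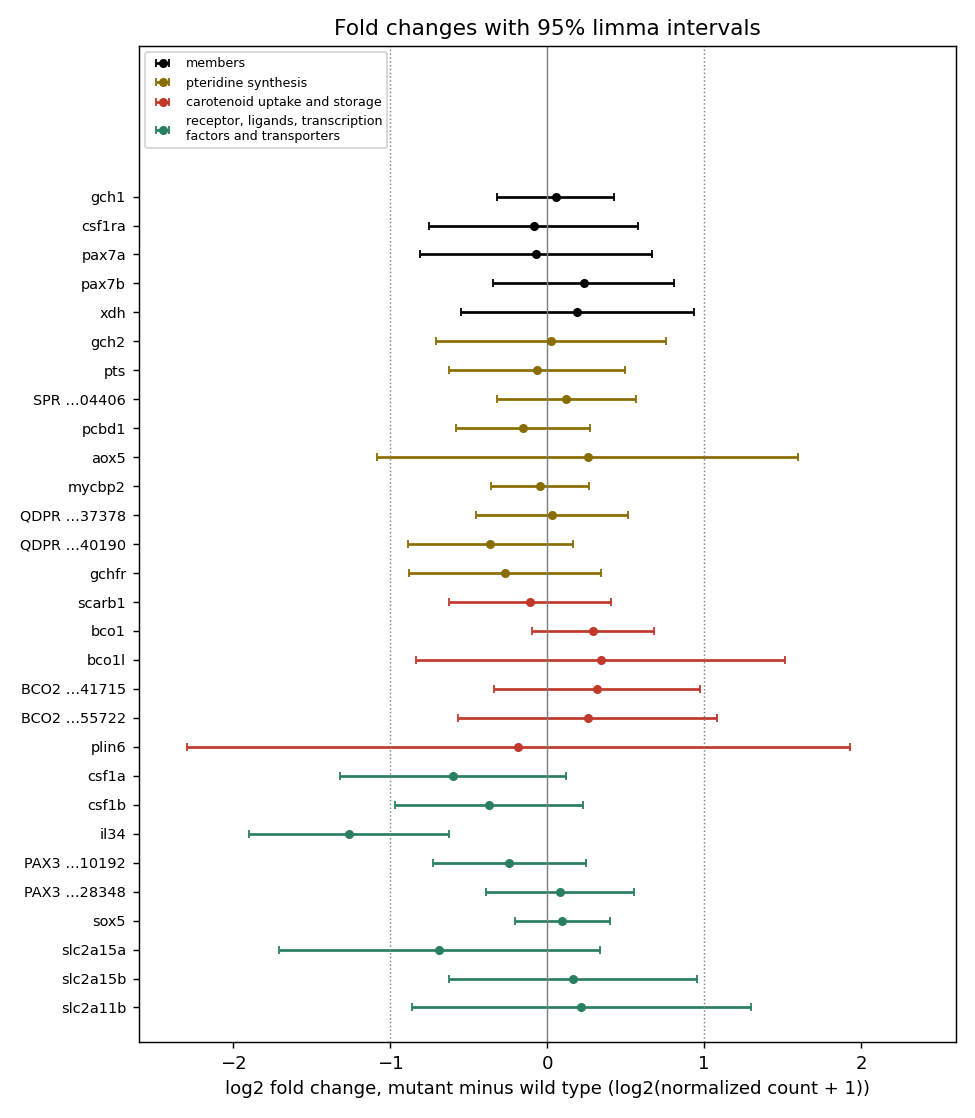
Log2 fold change, mutant minus wild type, of the 5 members and of the tested genes in 3 xanthophore lists (horizontal axis, on log2(normalized count + 1)), with points for the estimate and bars for the 95% limma interval; dotted lines mark a 2-fold difference, and names with dots are shortened identifiers. The intervals of all 5 members lie inside the dotted lines and cross 0, while that of il34 runs from -1.90 to -0.62.

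The intervals bound what these libraries can show. For all 5 members the 95% limma interval lay within a 2-fold difference in either direction, from 0.570 for pax7a to 1.91 for xdh, and each included no difference. A difference within these intervals could not be told from none with 3 libraries a group. By the exact permutation test on normalized counts, p was 0.6 for gch1, 0.7 for csf1ra, 1.0 for pax7a, 0.5 for pax7b and 0.4 for xdh.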

How the data were processed

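RNA-seq of sorted sox10:dsRed cells gave 1 table of 6 libraries. What the authors deposited is a signal in HTSeq normalized counts, per the name of the table. The submitters' processing notes list FastQC 0.11.7, STAR 2.6, Cuffnorm and GRCz11; strand and counting options are not given in the sources used here. In 5 libraries 100% of values were whole multiples of 1 step (tolerance 0.001 reads), giving 20088591 to 21802683 reads. Wild-type replicate 3 was left out of this check beforehand, because its step was near 1.

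Genes with at least 10 normalized counts in at least 3 libraries were tested with limma 3.58.1 (mean-variance trend, R 4.3.3) on log2(normalized count + 1), which understates changes of low genes. P-values were adjusted by Benjamini-Hochberg over all tested genes. Single values were compared by a two-sided exact permutation test. Counts of genes by their highest or lowest libraries were added after the data were seen. Of 27726 identifiers 25324 had a symbol, and 102 of 108 list symbols matched, human-style symbols included; those shared by several copies kept every copy. Named genes are the members, shoc2, up to 4 genes of highest mean per list and the 2 most alike genes per member. Others were chosen after their values were seen: aox5, il34, csf1a, csf1rb, spi1, plin6, slc2a15a, slc2a15b, slc2a11b, tfap2e, myf5, myod1, myog and kit. So were the second PAX3 row, the second SOX9 row and the genes nearest within the lists. Members and lists were chosen with earlier results of these data known. Alternatives were other pseudocounts, filters and scalings, no variance trend, a replicate block, each library left out and, added after the data were seen, edgeR 4.0.16 and DESeq2 1.42.0 on recovered reads of 5 libraries. The main limma fit, the replicate block, edgeR and DESeq2 were tested on simulated data. The other alternatives were not. Equal replicate numbers are not said to mark a shared clutch or day.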

Additional observations from a re-analysis of the deposited data

How the results depend on the processing

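None of the 5 xanthophore lineage genes passed the adjusted threshold under any of the 16 alternatives run (15 for xdh, whose mean was under 50 normalized counts), and the smallest unadjusted p was 0.0634, for pax7b. pax7b, xdh and shoc2 kept their sign throughout. csf1ra changed sign in edgeR (0.248) and DESeq2 (0.252), both without wild-type replicate 3, and pax7a changed sign in the same fits (0.001 and 0.008). With a library left out, log2 fold changes ran from -0.311 to 0.199 for csf1ra, from -0.024 to 0.136 for gch1, from -0.455 to 0.258 for pax7a, from 0.079 to 0.475 for pax7b and from 0.019 to 0.355 for xdh. Over all genes, 1 call became 3 without the filter, 0 without the variance trend (1227 at an unadjusted p under 0.05), 0 in edgeR (929 unadjusted) and 51 in DESeq2, both without wild-type replicate 3. With a library left out it ran from 0 to 4 (900 to 1516 unadjusted). Without wild-type replicate 2 the count was 4, and without any other library it was 0. Genes whose groups did not overlap were then 18.0% to 23.0%, since fewer libraries overlap less often. For the other changes the cause was not tested.

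With the replicate number as a block the count was 0 (906 unadjusted), and no member changed its call. Deviations of same-numbered libraries correlated at -0.202, -0.0288 and -0.0918, so these libraries did not deviate together. Whether they shared a clutch, day or sort cannot be read from these values. edgeR and DESeq2 on all 6 libraries were not run. Wild-type replicate 3 had been left out of the recovery of reads, so whether it would have succeeded there is not shown. plin6, at 2.05 to 32.9 normalized counts, had a standard error of 0.932 on the log2 scale, against a median of 0.232 over all tested genes.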

Other observations

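The other pigment cells of the neural crest gave these values in the same libraries. In limma 0 of 12 tested melanophore genes rose or fell at the adjusted threshold. The unadjusted p was under 0.05 for 2 of the 12, kit and TYRP1 (ENSDARG00000056151), against 5.8% of all tested genes. Groups did not overlap in 1 of the 12, kit, against 10.6% of all tested genes. A positive log2 fold change was found for 11 of the 12, and the median was 0.41, against 0.01 over all tested genes. Melanophore genes can vary together, so these signs are not independent counts. Mutant replicate 3 was the highest library for 9 of the 12, against 16.1% of all tested genes. pmela, a melanosome protein gene, had 6831, 5193 and 5505 normalized counts in wild type and 8930, 5553 and 9928 in mutants. tyr, the gene of tyrosinase, had 996, 773 and 954 in wild type and 1568, 869 and 1474 in mutants. Groups overlapped for pmela and for tyr, with limma adjusted p of 0.893 and 0.874.

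Of 8 tested iridophore genes 0 rose or fell and 3 had an unadjusted p under 0.05 in limma, against 5.8% of all tested genes, with a median log2 fold change of -0.20. ltk, a receptor tyrosine kinase gene of iridophores, averaged 1425 ± 267 normalized counts across wild-type libraries (SD, n = 3) and 1194 ± 169.9 across mutant ones (SD, n = 3). gpnmb had 688 ± 180.4 (SD, n = 3) and 445 ± 89.9 (SD, n = 3), and its groups did not overlap (limma adjusted p 0.731). Of the 8 genes, 2 were lower in every mutant than in every wild-type library, against 5.28% of all tested genes.

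Among 13 genes of pigment progenitors and neural crest 0 rose or fell in limma, 2 had an unadjusted p under 0.05 (5.8% of all tested genes), and 3 were higher in every mutant than in every wild-type library (5.29% of all tested genes). tfap2e, singled out after its values were seen, had 438, 478 and 400.3 normalized counts in wild type and 823, 635 and 765 in mutants, with limma giving a log2 fold change of 0.75 (SE 0.156) and an adjusted p of 0.336. The SOX9 row ENSDARG00000003293 had 7251 ± 1499 (SD, n = 3) and 10930 ± 1374 (SD, n = 3), and limma gave 0.60 (SE 0.168) as log2 fold change, at an adjusted p of 0.542. For the second SOX9 row, ENSDARG00000043923, limma gave 0.33 (SE 0.164), at an adjusted p of 0.901.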
